A study of Mus musculus with 6 samples.

Results

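Lysosomal hydrolases and lysosomal membrane proteins were followed as a set of 38 genes, listed by name with earlier results of these data known. The set held 8 cysteine proteases, 3 aspartic and serine proteases, 9 glycosidases, 4 sulfatases, 7 genes of lipid breakdown and sterol export, 5 membrane proteins, and granulin with the transcription factor Tfeb. All 38 were found by symbol among the 56923 gene identifiers of the count tables, and all 38 passed the filter on low counts that left 18273 genes for testing. RNA sequencing had measured poly-A RNA of whole kidneys from male mice at 10 weeks, 3 control and 3 Pkd1 KO kidneys. Every mouse of both groups was Pkd1flox/flox, carried Tet-O-Cre, a Cre recombinase gene that needs a doxycycline-dependent activator, and drank 2 mg/ml doxycycline with 5% sucrose between postnatal days 28 and 42, for 14 days. Pkd1 KO mice carried Pax8rtTA as well, an activator under the Pax8 promoter, which is active in kidney tubule cells. Control mice lacked it, and the labels describe their kidneys as non-cystic. Cells in which Pax8 is not active therefore kept floxed Pkd1 alleles in both groups. The labels give no strain.

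The 6 libraries held 45020173 to 62983791 gene counts, and the lowest count of any of the 38 genes in any library was 140 (Ctsk). Pkd1 stood at 30.01, 46.4 and 23.6 CPM in the controls and 8.77, 9.003 and 10.01 CPM in the Pkd1 KO kidneys, a log2 fold change of −1.85 ± 0.24 (SE) that was −0.34 (adjusted p = 0.0644) in the offset fit explained below. Per the table names, the controls were sequenced under 1 project and the Pkd1 KO libraries under another, so the effects of genotype and of sequencing project cannot be told apart throughout. The labels name separate kidneys and say no more of the animals, so p-values measure the spread between these samples. In whole kidneys, fewer cells of a type and less RNA per cell cannot be told apart either. Levels are CPM, gene counts scaled to a common library total, and a gene was called where its adjusted p in edgeR's quasi-likelihood test was under 0.05. Across all genes the fold changes followed GC content and transcript length, so each gene is also given in a second fit with offsets for both, which would remove a change shared by GC-rich or long genes too. After a gene, parentheses hold the log2 fold change with its SE (positive where Pkd1 KO was higher, 3 kidneys in each group) and then the value in the offset fit, with an adjusted p where edgeR's test did not pass 0.05 there.

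Lysosomes are acidic organelles in which hydrolases cut proteins, glycans, sulfated glycosaminoglycans and lipids that arrive by endocytosis, phagocytosis or autophagy. Most hydrolases are made in the endoplasmic reticulum, tagged with mannose 6-phosphate and carried to the organelle by receptors, while membrane proteins such as LAMP1 and LAMP2 line it. In the kidney, proximal tubule cells take up filtered protein and degrade it in a large lysosomal system, and macrophages are another cell type rich in lysosomal proteases. TFEB, a transcription factor held in the cytosol by mTORC1 when nutrients are plentiful, activates many lysosomal genes through a palindromic promoter element known as the CLEAR motif.

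The promoter letters of the set are shown first, because that element is the one sequence feature by which these genes are commonly grouped. RefSeq windows (build GRCm38.p6) of 300 bases, 250 before to 50 after a transcription start, matched 34 of the 38 genes in 39 windows, and Npc1, Asah1, Ctsh and Ctsb had none in the table. The core TCACGTGA was present in 4 of the 34 genes (11.76%), namely Ctsa, Ctsd, Mcoln1 and Gla, against 304 of the 27025 genes of the whole table (1.12%). The shorter E-box CACGTG, which TCACGTGA contains, was present in 12 of 34 (35.29%) against 2187 of 27025 (8.09%). Both motifs read the same on either strand. By call without the offsets, CACGTG was present in 0 of the 7 matched genes that rose, 7 of 17 that fell (41.18%) and 5 of 10 that were not called. By window, it was in 0 of 7, 7 of 22 (31.82%) and 5 of 10. With the offsets several of these calls ended. They were Ctss, Laptm4a, Lamp2, Ppt1 and Lipa among the increases, and Ctsa, Mcoln1 and Naglu among the decreases with the motif. The 250 bases before the start are printed 5′ to 3′ on the gene's strand, with TCACGTGA or CACGTG in capitals. They are given for 5 genes that fell and hold the motif and for 2 that rose and do not. Not printed are genes that fell without the motif, such as Psap and Man2b1, and uncalled genes that hold it, such as Lamp1 and Ctsd. The glycogen-degrading enzyme Gaa (chr11:119267713-119267962, plus strand) and the heparan sulfatase Sgsh (chr11:119355511-119355760, minus strand) had among the largest decreases of the set.
Gaa: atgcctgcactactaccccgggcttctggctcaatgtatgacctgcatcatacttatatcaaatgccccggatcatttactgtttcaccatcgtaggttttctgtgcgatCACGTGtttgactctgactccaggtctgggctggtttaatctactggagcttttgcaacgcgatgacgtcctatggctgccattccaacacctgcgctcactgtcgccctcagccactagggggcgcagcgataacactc
Sgsh: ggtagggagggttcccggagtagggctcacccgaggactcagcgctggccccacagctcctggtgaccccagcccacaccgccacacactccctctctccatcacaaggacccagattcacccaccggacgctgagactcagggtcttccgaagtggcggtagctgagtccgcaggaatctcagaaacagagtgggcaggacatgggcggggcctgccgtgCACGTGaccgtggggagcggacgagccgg
The β-galactosidase Glb1 (chr9:114400828-114401077, plus strand), the protective protein Ctsa (chr2:164833523-164833772, plus strand) and the calcium channel Mcoln1 (chr8:3500269-3500518, plus strand) fell by less.
Glb1: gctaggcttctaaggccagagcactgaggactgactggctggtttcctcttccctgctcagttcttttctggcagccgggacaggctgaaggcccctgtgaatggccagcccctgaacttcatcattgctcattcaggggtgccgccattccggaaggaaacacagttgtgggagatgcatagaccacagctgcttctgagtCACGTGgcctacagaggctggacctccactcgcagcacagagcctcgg
Ctsa: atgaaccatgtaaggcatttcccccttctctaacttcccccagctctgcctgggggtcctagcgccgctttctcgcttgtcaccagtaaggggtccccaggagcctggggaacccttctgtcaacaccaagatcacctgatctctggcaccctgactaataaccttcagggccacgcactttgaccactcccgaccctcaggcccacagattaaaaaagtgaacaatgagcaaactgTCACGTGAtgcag
Mcoln1: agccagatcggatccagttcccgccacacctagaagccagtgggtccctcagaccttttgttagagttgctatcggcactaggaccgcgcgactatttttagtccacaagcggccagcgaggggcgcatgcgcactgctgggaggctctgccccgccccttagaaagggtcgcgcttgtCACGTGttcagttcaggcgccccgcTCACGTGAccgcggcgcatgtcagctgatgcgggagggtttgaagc
The sterol carrier Npc2 (chr12:84773113-84773362, minus strand) and the cathepsin Ctsk (chr3:95498960-95499209, plus strand) rose.
Npc2: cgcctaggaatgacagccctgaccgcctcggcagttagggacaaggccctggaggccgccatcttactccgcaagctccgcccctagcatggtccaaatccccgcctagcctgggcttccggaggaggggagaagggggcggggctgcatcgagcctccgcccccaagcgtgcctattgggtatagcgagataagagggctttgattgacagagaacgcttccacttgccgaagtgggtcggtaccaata
Ctsk: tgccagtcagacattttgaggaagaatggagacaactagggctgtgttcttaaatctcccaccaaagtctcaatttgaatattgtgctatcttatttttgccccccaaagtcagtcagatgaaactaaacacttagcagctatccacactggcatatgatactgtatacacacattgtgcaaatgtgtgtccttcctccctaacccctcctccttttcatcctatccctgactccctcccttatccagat
The first CACGTG began 140 bases before the start in Gaa, 29 in Sgsh, 48 in Glb1, 12 in the printed window of Ctsa and 71 in Mcoln1. A gene was counted if any of its windows held the motif. Ctsa (chr2:164832622-164832921) and Lgmn each have another window that holds neither motif. A match is a description of the letters and not a bound site.

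The lysosomal genes, a set chosen with earlier results of these data known, moved in both directions, with more decreases than increases. Of the 38 genes, 27 were called (71.1%, beside 46.9% of all tested genes), 9 higher in Pkd1 KO kidneys (23.7%, beside 22.7%) and 18 lower (47.4%, beside 24.2%). The share of increases was thus near that of all genes and the share of decreases above it. The shares were not matched for level: no count of the 38 was under 140, and genes with fewer counts were tested too. The median log2 fold change was −0.24 against 0.03 over all tested genes, but −0.03 against 0.00083 in the offset fit. The 3 values of 1 group lay wholly above the 3 of the other in 29 of the 38 (all genes, 61.2%), 9 with Pkd1 KO higher (31.2%) and 20 with Pkd1 KO lower (30.0%). In edgeR's test without offsets 7 genes fell at least 2-fold and 1, Ctsk, rose as far. With the offsets 1, Psap (−1.05), fell at least 2-fold, and 2, Ctsh (1.12) and Npc2 (1.13), rose as far. These values lay near that limit, and the calls with the offsets were still 12 lower and 4 higher. The share of all genes at that limit is not given. The summed level of all 38 was 10836, 10571 and 10722 CPM in the controls and 10275, 9719 and 9475 CPM in the Pkd1 KO kidneys. Without Psap, the largest contributor, the sum was not lower in Pkd1 KO kidneys, at 8339 to 9032 CPM in controls and 8683 to 9303 CPM in Pkd1 KO kidneys, with overlapping ranges. With upper-quartile scaling, which moved the median of all genes from 0.03 to 0.19, the split of the 38 was 11 higher and 14 lower. All tested genes split into 5274 higher and 3447 lower of 18273 with that scaling. The scaling ended the calls of Ids, Gusb, Lgmn and Ctsa (adjusted p = 0.202, 0.157, 0.127 and 0.0801 in edgeR's test). Testing with no filter on low counts ended those of Ids, Gusb, Lgmn and Lipa (adjusted p = 0.12, 0.0577, 0.0664 and 0.0529).

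**Figure D1:**
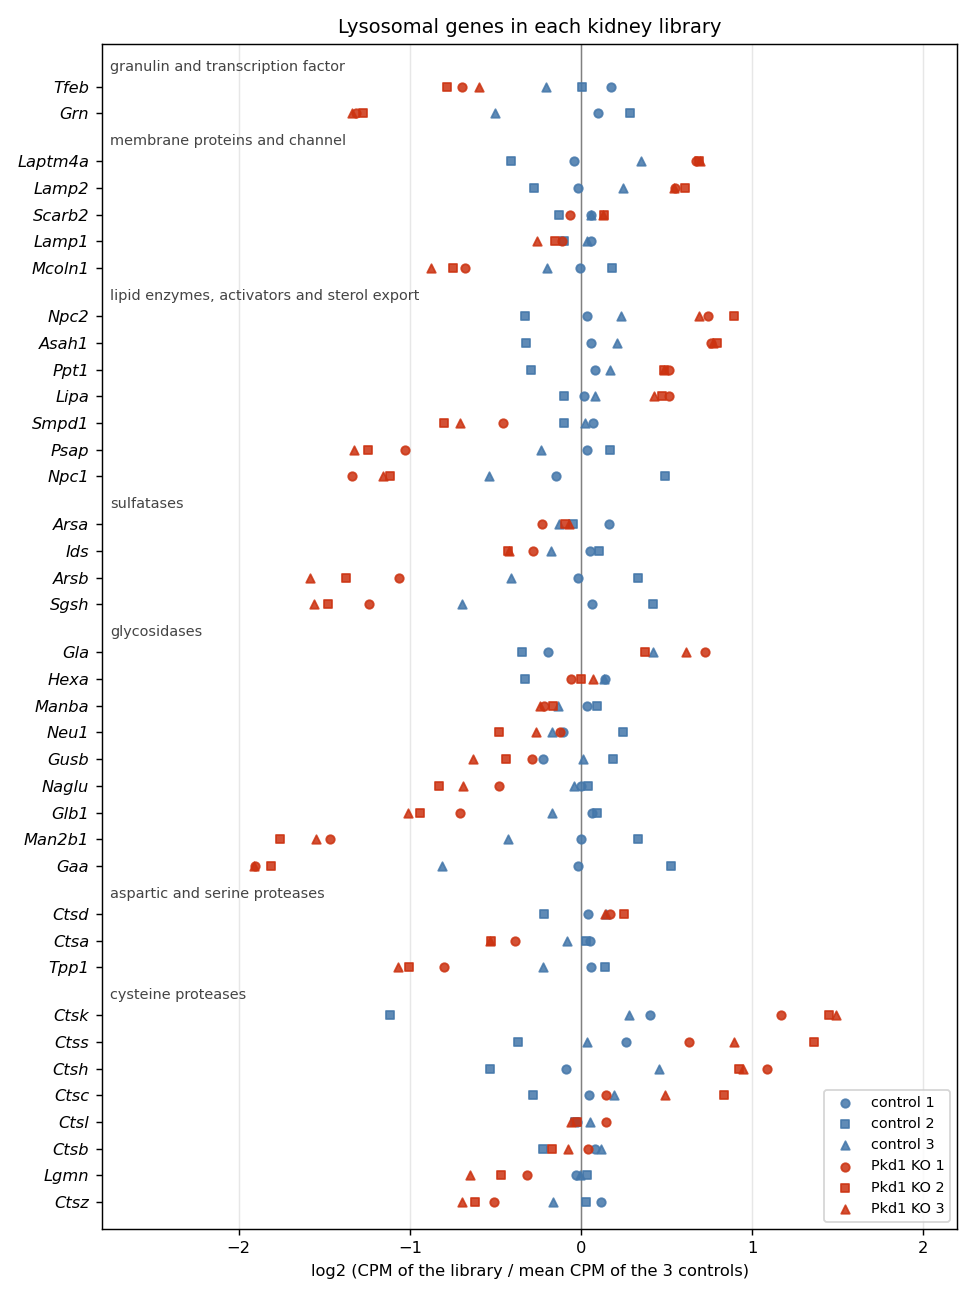
Level of each of the 38 lysosomal genes in each library, as log2 of its CPM over the mean CPM of the 3 controls, with controls in blue, Pkd1 KO in red and marker shape for the library number. The 3 red points lie to the left of all blue points for 20 genes and to the right for 9, and control 2 (blue square) is an end point of the control values for most called genes.

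The offset fit called 16 of the 38 (all genes in that fit, 34.5%), 4 higher (10.5%, beside 17.1%) and 12 lower (31.6%, beside 17.3%). Ctsk, Ctsh and Npc2 were higher in both fits. Gaa, Man2b1, Sgsh, Arsb, Grn, Npc1, Psap, Tpp1, Glb1, Ctsz, Lgmn and Ids were lower in both. Tfeb was called lower without the offsets and higher with them. The remaining 6 increases and 5 decreases were not called with the offsets, and 25 of the 38 values moved toward 0. Of the 27 called genes, 19 kept their call whichever single library was left out, 5 higher and 14 lower. Increases numbered 9 with all libraries, and only 5 were called when control 1, KO 2 or KO 3 was left out. Over all genes, increases numbered 4148 with all libraries and 2635, 2340 and 2796 without those libraries, in that order. The 13 genes called the same way in both fits and without any single library were Ctsk, Ctsh and Npc2 among the increases and Gaa, Man2b1, Sgsh, Arsb, Grn, Npc1, Psap, Tpp1, Glb1 and Ctsz among the decreases.

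**Figure D2:**
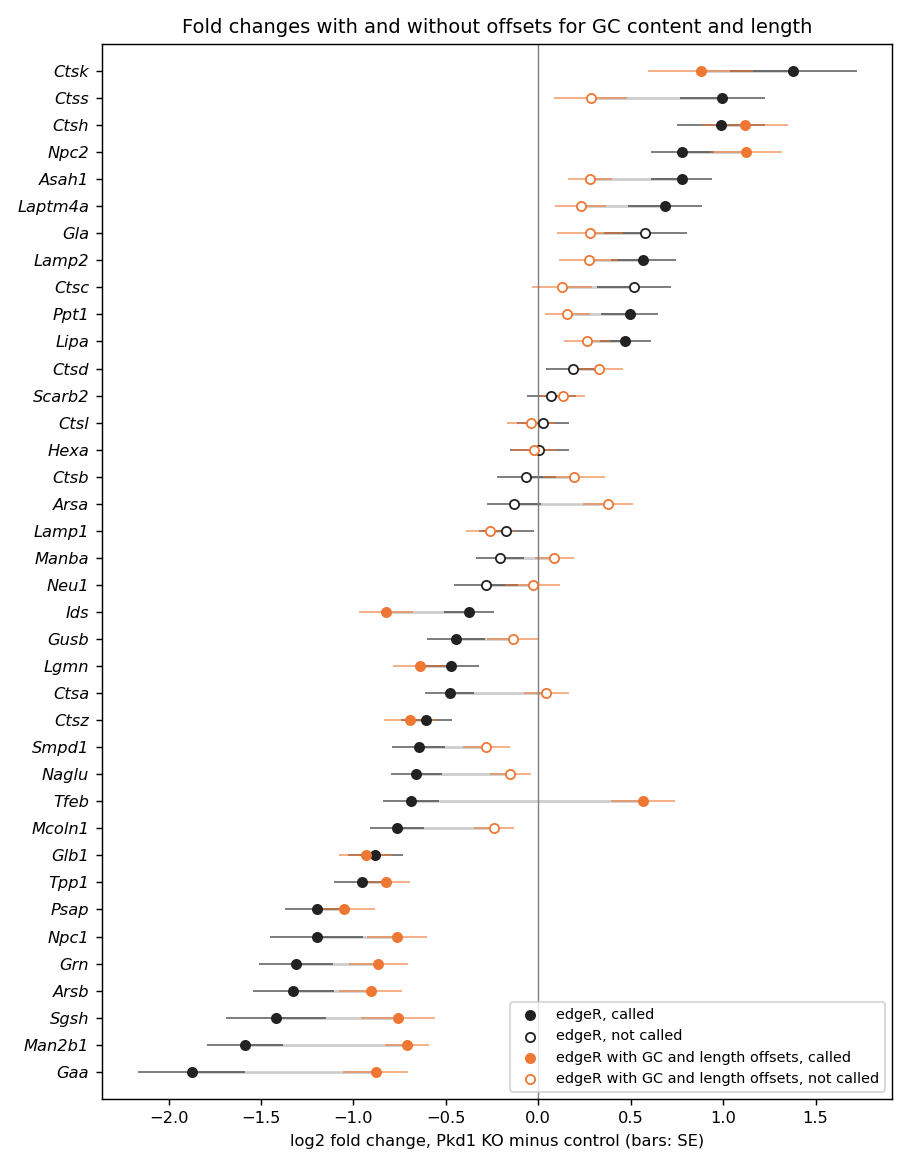
Log2 fold change (Pkd1 KO minus control) of the 38 genes in edgeR's test (black) and in the same test with offsets for GC content and length (orange), bars SE, filled points called. Tfeb crosses 0 from −0.69 to 0.57, Gaa moves from −1.88 to −0.88, Npc2 moves from 0.78 to 1.13, and Ctsh goes from 0.99 to 1.12.

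Beside the counts of each class below stand the shares over all tested genes, 22.7% higher and 24.2% lower, or 17.1% and 17.3% with the offsets. The classes hold 2 to 9 genes, so a count near those shares is no result about a class. Glycosidases, which trim sugars from glycogen, glycoproteins and glycolipids, supplied the 2 largest decreases of the set without offsets (with them, Psap fell most): 5 of 9 fell, 0 rose (1, Gla, without control 3) and 4 were not called. With the offsets 3 fell and 0 rose. Gaa (ENSMUSG00000025579), acid α-glucosidase, which digests glycogen and is deficient in Pompe disease, stood at 92.9, 135 and 53.6 CPM in controls 1, 2 and 3 and 25.1, 26.8 and 24.95 CPM in Pkd1 KO 1, 2 and 3. The Pkd1 KO values lay close together and below the lowest control, while the controls spread widely, control 2 highest and control 3 lowest. Its mean went from 93.98 ± 40.98 to 25.6 ± 1.01 CPM (SD, n = 3 each), 3.67-fold lower (log2 fold change −1.88 ± 0.29, adjusted p = 0.00275, offset fit −0.88), and the log2 fold change was −1.55 without control 2. Man2b1 (ENSMUSG00000005142), the lysosomal α-mannosidase, had 193, 242 and 143 CPM in controls 1, 2 and 3 and 69.8, 56.9 and 65.96 CPM in Pkd1 KO 1, 2 and 3. It showed the same order of controls and no overlap, at 3.003-fold lower (log2 fold change −1.59 ± 0.20, adjusted p = 0.00234, offset fit −0.71). Glb1 (ENSMUSG00000045594), β-galactosidase, had 163, 166 and 138 CPM in the controls and 95.1, 81.1 and 77.02 CPM in the Pkd1 KO kidneys, again with no overlap (−0.88 ± 0.15, offset fit −0.93), and its value barely changed with the offsets. Naglu, an enzyme of heparan sulfate breakdown, fell in edgeR's test with groups apart (−0.66 ± 0.14, offset fit −0.15, adjusted p = 0.315). Gusb, β-glucuronidase, fell (−0.44 ± 0.16, offset fit −0.14, adjusted p = 0.479) with control 1 (40.5 CPM) just above KO 1 (38.9 CPM), and its call ended on leaving out a KO library (adjusted p = 0.0625, 0.129 and 0.183 without KO 1, 2 and 3).

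The other glycosidases missed the threshold, which does not show that they were equal. The sialidase Neu1 (−0.28 ± 0.17, adjusted p = 0.209, offset fit −0.03) and the α-subunit of β-hexosaminidase, Hexa (0.01 ± 0.16, adjusted p = 0.978, offset fit −0.02), had overlapping groups. Manba, β-mannosidase, lay lower in every Pkd1 KO library, at 116, 121 and 103 CPM in the controls and 97.5, 101 and 95.8 CPM in the Pkd1 KO kidneys (−0.21 ± 0.13, adjusted p = 0.218, offset fit 0.09), with an adjusted p of 0.0479 at −0.32 without control 3. Gla, the α-galactosidase deficient in Fabry disease, was the one glycosidase with a positive value of size, at 6.14, 5.53 and 9.38 CPM in the controls and 11.6, 9.08 and 10.7 CPM in the Pkd1 KO kidneys (0.58 ± 0.22, adjusted p = 0.0594, offset fit 0.28). Its groups overlapped through control 3, without which the adjusted p was 0.00455 at 0.79, and it also passed in DESeq2 (0.0441), with upper-quartile scaling (0.0326) and with no filter on low counts (0.0348).

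Of the sulfatases, which remove sulfate from glycosaminoglycans and sulfolipids, 3 of 4 fell and 0 rose, and those 3 fell in both fits. Sgsh (ENSMUSG00000005043), the heparan N-sulfatase deficient in a Sanfilippo syndrome, was at low levels of 13.6, 17.5 and 8.06 CPM in controls 1, 2 and 3 and 5.54, 4.69 and 4.44 CPM in Pkd1 KO 1, 2 and 3. No Pkd1 KO value reached the lowest control, and control 2 was again the highest library (log2 fold change −1.42 ± 0.27, adjusted p = 0.00429, offset fit −0.76). Arsb (ENSMUSG00000042082), which acts on dermatan and chondroitin sulfate, stood at 200.01, 255 and 153 CPM in controls 1, 2 and 3 and 97.1, 78.1 and 67.5 CPM in Pkd1 KO 1, 2 and 3, 2.51-fold lower (log2 fold change −1.32 ± 0.22, adjusted p = 0.00296, offset fit −0.91). In GENCODE M21, 39.9% of the exon bases of Arsb and 21.6% of those of Sgsh overlap a gene on the opposite strand, and the counts keep no strand. Ids, iduronate sulfatase, is an X-linked gene deficient in Hunter syndrome and fell by less (−0.37 ± 0.14, offset fit −0.82). Its call ended in edgeR's test with a library left out (adjusted p = 0.0856, 0.165 and 0.17 without KO 1, 2 and 3, and 0.123 without control 1), while the offsets enlarged its decrease. Arsa, which acts on sulfatide, was not called, with overlapping groups at 15.3, 13.2 and 12.5 CPM in the controls and 11.6, 12.8 and 12.97 CPM in the Pkd1 KO kidneys (−0.13 ± 0.15, adjusted p = 0.488, offset fit 0.38).

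The genes of lipid breakdown and sterol export divided, 4 higher and 3 lower, and all 7 were called, with 2 increases left without control 1 or any KO library. With the offsets 1 rose and 2 fell. Psap (ENSMUSG00000004207), the precursor of the saposins that present sphingolipids to their hydrolases, had the largest fall in CPM of the set. Its levels were 2035, 2232 and 1689 CPM in controls 1, 2 and 3 and 972, 838 and 792 CPM in Pkd1 KO 1, 2 and 3, with no overlap (log2 fold change −1.19 ± 0.18, adjusted p = 0.00259, offset fit −1.05). Npc1 (ENSMUSG00000024413), the membrane protein that exports cholesterol from lysosomes, had 17.3, 26.9 and 13.2 CPM in controls 1, 2 and 3 and 7.58, 8.84 and 8.59 CPM in Pkd1 KO 1, 2 and 3 (log2 fold change −1.20 ± 0.25, adjusted p = 0.00574, offset fit −0.76), and without control 2 its log2 fold change was −0.91, still called. Npc2 (ENSMUSG00000021242), the soluble carrier that hands cholesterol to NPC1, went the other way, at 138, 108 and 159 CPM in controls 1, 2 and 3 and 226, 250.4 and 218 CPM in Pkd1 KO 1, 2 and 3. All Pkd1 KO values of Npc2 exceeded all controls, and its increase was larger with the offsets (log2 fold change 0.78 ± 0.17, adjusted p = 0.007, offset fit 1.13). Both partners of the cholesterol export step were thus called in both fits, in opposite directions.

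Among enzymes of sphingolipids, acid sphingomyelinase Smpd1 had 122, 108 and 118 CPM in the controls and 84.5, 66.4 and 71.1 CPM in the Pkd1 KO kidneys and fell (−0.65 ± 0.14, offset fit −0.28, adjusted p = 0.113). Acid ceramidase Asah1, which acts on the product of that enzyme, had 129, 99.3 and 143 CPM in the controls and 209, 215 and 212 CPM in the Pkd1 KO kidneys and rose (0.78 ± 0.16, offset fit 0.28, adjusted p = 0.0939). Groups did not overlap in either gene, and neither was called with the offsets. Lipa, the lipase for cholesteryl esters and triglycerides, rose (0.47 ± 0.14, offset fit 0.26, adjusted p = 0.121), as did the thioesterase Ppt1 (0.50 ± 0.15, offset fit 0.16, adjusted p = 0.332), which removes fatty acids from proteins and is deficient in a neuronal ceroid lipofuscinosis. Both calls ended on leaving out control 1 or any KO library in edgeR's test, with adjusted p = 0.0727, 0.0815 and 0.0659 without KO 1, 2 and 3, and 0.0846 without control 1 for Lipa and adjusted p = 0.0845, 0.0884 and 0.0851 without KO 1, 2 and 3, and 0.0716 without control 1 for Ppt1.

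The cysteine proteases also divided, with 3 of 8 higher, 2 lower (1 without control 1, KO 2 or KO 3) and 3 not called. Their decreases were near the share of all genes, and with the offsets 2 rose and 2 fell. Ctsk (ENSMUSG00000028111), cathepsin K, a collagen-degrading protease best known from osteoclasts, had the largest increase of the set without offsets (with them, Npc2) but a low level, 6.93, 2.42 and 6.37 CPM in controls 1, 2 and 3 and 11.8, 14.3 and 14.7 CPM in Pkd1 KO 1, 2 and 3. Control 2 was far below the other controls, and the lowest Pkd1 KO value was well above the highest control. The log2 fold change was 1.38 ± 0.34 (adjusted p = 0.0112, offset fit 0.88), and 1.00 without control 2. Ctss (ENSMUSG00000038642), cathepsin S, which processes the invariant chain of MHC class II in antigen-presenting cells, had 18.02, 11.6 and 15.4 CPM in controls 1, 2 and 3 and 23.2, 38.6 and 27.9 CPM in Pkd1 KO 1, 2 and 3. The Ctss groups were apart, with KO 2 highest, and its call ended with the offsets (log2 fold change 1.00 ± 0.23, adjusted p = 0.00834, offset fit 0.28, adjusted p = 0.287). Ctsh (ENSMUSG00000032359), cathepsin H, an aminopeptidase, stood at 287, 211 and 419 CPM in controls 1, 2 and 3 and 649.9, 579.8 and 589.8 CPM in Pkd1 KO 1, 2 and 3, with every Pkd1 KO value above control 3 (log2 fold change 0.99 ± 0.24, adjusted p = 0.00992, offset fit 1.12). The increase of Ctsh was called in both fits and without any single library.

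Lgmn, legumain, an asparagine-specific protease abundant in proximal tubule, was among the genes that fell (−0.47 ± 0.15, offset fit −0.64), with 682, 714 and 694 CPM in the controls and 561, 504 and 445 CPM in the Pkd1 KO kidneys. Its groups were apart, and the call ended without control 1, KO 2 or KO 3 in edgeR's test (adjusted p = 0.105 and 0.137 without KO 2 and 3, and 0.0701 without control 1). Ctsz, cathepsin Z, a carboxypeptidase, fell in both fits (−0.61 ± 0.14, offset fit −0.69). The general endopeptidases Ctsb (−0.07 ± 0.16, adjusted p = 0.755, offset fit 0.20) and Ctsl (0.03 ± 0.14, adjusted p = 0.892, offset fit −0.04) were not called, with values near 0 and overlapping groups. For Ctsl, 26.8% of the exon bases overlap other genes in GENCODE M21, 1 of them on the same strand. Ctsc, which activates granule serine proteases of immune cells, had 27.9, 22.3 and 30.9 CPM in the controls and 29.9, 48.2 and 38.04 CPM in the Pkd1 KO kidneys (0.52 ± 0.20, adjusted p = 0.0622, offset fit 0.13). Control 3 and KO 1 met in Ctsc, and it passed without either of them (adjusted p = 0.0413 without KO 1, and 0.0386 without control 3), with upper-quartile scaling (0.03) and with no filter on low counts (0.0286).

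Of the aspartic and serine proteases, 2 of 3 fell (1 without control 1, KO 2 or KO 3, and 1 with the offsets) and 0 rose. Tpp1 (ENSMUSG00000030894), a tripeptidyl peptidase deficient in another neuronal ceroid lipofuscinosis, had 228, 241 and 188 CPM in controls 1, 2 and 3 and 126, 109 and 105 CPM in Pkd1 KO 1, 2 and 3, with a wide gap between the groups (log2 fold change −0.95 ± 0.15, adjusted p = 0.00287, offset fit −0.83). Ctsa, the carboxypeptidase that protects NEU1 and GLB1 in a complex, had 289.996, 285 and 264 CPM in the controls and 214, 194 and 194 CPM in the Pkd1 KO kidneys. It fell in edgeR's test with groups apart but lay near 0 with the offsets (−0.48 ± 0.13, offset fit 0.04, adjusted p = 0.811). The Ctsa call also ended with a library left out (adjusted p = 0.0867 and 0.0864 without KO 2 and 3, and 0.0619 without control 1). Of that complex, Glb1 was called lower in both fits, Ctsa in 1, and Neu1 in neither. Differences between these genes were not tested. Ctsd, cathepsin D, the main aspartic protease, was not called, with overlapping groups (0.19 ± 0.15, adjusted p = 0.318, offset fit 0.33), and 34.4% of its exon bases overlap another gene on the same strand in GENCODE M21.

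The membrane proteins gave 2 increases and 1 decrease among 5, and 0 of these calls held with the offsets. Lamp2, whose product is the receptor of chaperone-mediated autophagy, had 1105, 927 and 1330.01 CPM in the controls and 1638, 1711 and 1634 CPM in the Pkd1 KO kidneys and rose (0.57 ± 0.18, offset fit 0.27, adjusted p = 0.214). Laptm4a, a multi-pass protein of late endosomes and lysosomes, had 409.5, 317 and 536 CPM in the controls and 670.03, 677 and 681 CPM in the Pkd1 KO kidneys and rose (0.68 ± 0.20, offset fit 0.23, adjusted p = 0.222). In both genes the Pkd1 KO values lay within a narrow range above all controls, and both calls ended without control 1 or any KO library (adjusted p = 0.0677, 0.0964 and 0.0719 without KO 1, 2 and 3, and 0.0991 without control 1 for Lamp2, and 0.0607, 0.0718 and 0.0631 without KO 1, 2 and 3, and 0.0812 without control 1 for Laptm4a, in edgeR's test). Mcoln1, the calcium channel through which lysosomes signal, had 58.7, 66.8 and 51.3 CPM in the controls and 36.8, 35.1 and 32.1 CPM in the Pkd1 KO kidneys and fell (−0.77 ± 0.15, offset fit −0.24, adjusted p = 0.109). Lamp1, the companion of Lamp2 in the lysosomal membrane, lay slightly lower in every Pkd1 KO library and was not called (−0.17 ± 0.15, adjusted p = 0.36, offset fit −0.26). Scarb2, the receptor that delivers glucocerebrosidase, was not called (0.07 ± 0.13, adjusted p = 0.684, offset fit 0.13), and its value was −0.02 without control 2.

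Grn (ENSMUSG00000034708), progranulin, a secreted glycoprotein that is cut into granulins in lysosomes and travels there with prosaposin, fell together with Psap. It stood at 136, 154 and 89.5 CPM in controls 1, 2 and 3 and 50.8, 52.3 and 49.99 CPM in Pkd1 KO 1, 2 and 3, 2.48-fold lower (log2 fold change −1.31 ± 0.20, adjusted p = 0.00269, offset fit −0.86). The Grn values of the Pkd1 KO kidneys differed little from each other and lay below control 3, the lowest control. Tfeb (ENSMUSG00000023990), the regulator itself, had 29.4, 26.1 and 22.6 CPM in controls 1, 2 and 3 and 16.1, 15.1 and 17.3 CPM in Pkd1 KO 1, 2 and 3. Its groups were apart, with all Pkd1 KO values lower (−0.69 ± 0.15, adjusted p = 0.00674). With the offsets it was called in the opposite direction, 0.57 ± 0.17 (adjusted p = 0.0316), and with quadratic offsets it was 0.36 (adjusted p = 0.11, the highest over its 16 alternatives, of which the lowest was 0.000218). Tfeb had the highest GC content of the 38 genes, 63.2%, and its direction differed between the fits.

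Fold changes within the set followed GC content. The median GC content of the longest transcript was 45.98% for the 9 genes that rose, 54.3% for the 18 that fell and 49.2% for the 11 not called. Spearman's rho between GC content and log2 fold change over the 38 genes was −0.54, and −0.23 with the offsets, which were fitted on this trend over all genes. These genes share their libraries and are not independent. Exceptions stood on both sides of the median of the genes not called. Ids (41.4% GC), Npc1 (45.7%) and Tpp1 (48.7%) fell with a lower GC content, and Ctsh (50.1%) and Npc2 (51.3%) rose with a higher one. All 5 were called in both fits. Exon length, from 1358 to 11317 bases, gave a rho of −0.22. Whether the trend came from the kidneys or from the 2 sequencing projects cannot be told apart.

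**Figure D3:**
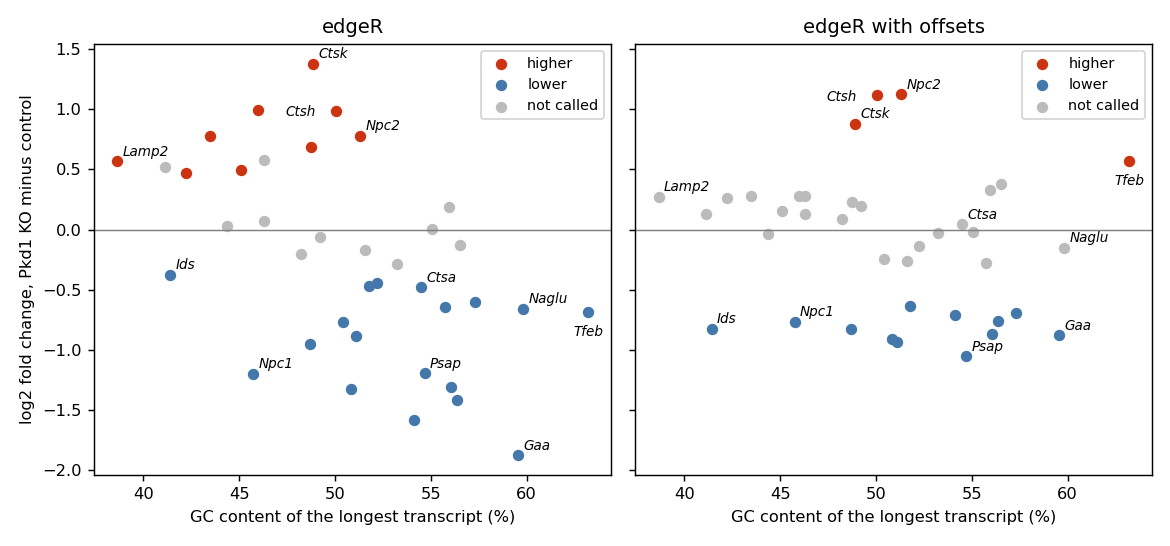
Log2 fold change (Pkd1 KO minus control) of the 38 genes against the GC content of their longest transcript, without offsets (left) and with offsets for GC content and length (right), colour by call. The downward slope of the left panel (rho −0.54) is shallower on the right (−0.23), where Tfeb, at the highest GC content, is above 0.

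Levels were compared between genes as CPM per kb of exon. Psap was the highest of the 38 in controls at 724 ± 100.1 CPM per kb (SD, n = 3) and ranked 3 at 316 ± 34.1 in Pkd1 KO kidneys. Lamp1 (433 ± 25.2 in controls, 384 ± 19.8 in Pkd1 KO) and Laptm4a (237 ± 62.03 and 381 ± 3.08) ranked above it there and did not differ from each other beyond their spread. Npc1, at 1.69 ± 0.624 and 0.737 ± 0.0588 CPM per kb, was the lowest of the set in both groups. Spearman's rho between the control level and the size of the log2 fold change, whatever its sign, was −0.25 over the 38 genes (−0.06 with the offsets).

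**Figure D4:**
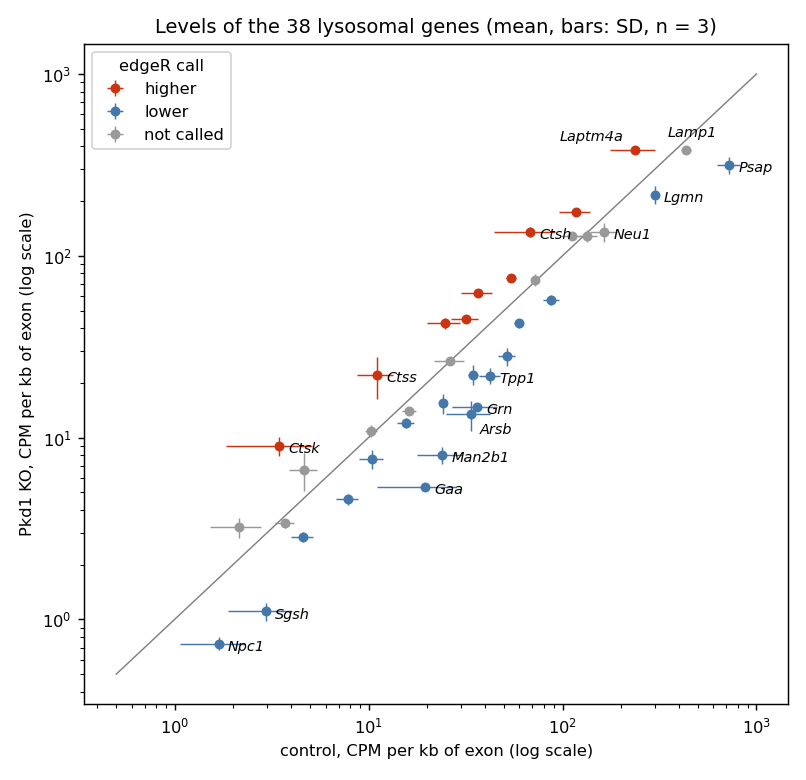
Mean level of the 38 genes in CPM per kb of exon, Pkd1 KO (vertical, log scale) against control (horizontal, log scale), bars SD over 3 kidneys, colour by call, line of equality in grey. Psap moves from the highest level in controls (724) to below Lamp1 and Laptm4a in Pkd1 KO kidneys, and horizontal bars (controls) are longer than vertical ones for most genes.

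The genes of the set varied more among controls than among Pkd1 KO kidneys. The coefficient of variation was larger in controls for 29 of the 38 genes, with a median of 13.96% in controls and 7.39% in Pkd1 KO kidneys, and over all tested genes it was 22.1% and 10.5%. Control 2 was the lowest control in all 9 genes that rose and the highest in 14 of the 18 that fell. Control 3 was the highest control in 7 of the 9 and the lowest in 15 of the 18. In both sets, control 2 was thus mostly the control farthest from the Pkd1 KO kidneys and control 3 the nearest. Among Pkd1 KO kidneys, KO 1 was the highest in 14 of the 18 genes that fell and KO 3 the lowest in 12. On the first principal component of all genes (70.4% of the variance) the controls had the same order, at −58.1, −92.6 and −24.2, with the Pkd1 KO libraries at 52.4, 66.4 and 56.1.

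For each list that follows, markers included, the shares over all tested genes were 22.7% higher and 24.2% lower. With the offsets they were 17.1% and 17.3%. The other lysosomal enzymes, 36 further hydrolases and cofactors, gave 10 increases and 11 decreases (median −0.18). With the offsets these were 6 and 9 (median −0.09), and 7 decreases were left without KO 2. Ggh, γ-glutamyl hydrolase, (1.32 ± 0.21, offset fit 0.48) and the sulfatase Arsg (1.22 ± 0.15, offset fit 1.36) rose in both fits. The mannosidase Man2b2 (−1.74 ± 0.19, offset fit −1.09) and Galns (−1.21 ± 0.16, offset fit −1.02), a sulfatase of keratan and chondroitin sulfate, fell in both. Of 28 tested further membrane proteins, 3 rose and 11 fell (median −0.27, and 5 and 7 with the offsets, median −0.21). Its increases numbered 1 without control 1 or any KO library and 5 without control 3. The tetraspanin Cd63 (0.92 ± 0.21, offset fit 1.52) rose, and the transporters and channels Abca2 (−1.83 ± 0.33, offset fit −0.61), Tpcn1 (−1.63 ± 0.23, offset fit −0.53) and Slc29a3 (−1.54 ± 0.34, offset fit −1.14) fell.

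Of 14 genes that tag, sort or activate hydrolases, 4 rose and 7 fell (median −0.46), but only 1 and 3 were called with the offsets (median −0.00065), and 2 rose when control 1 or KO 1 was left out. The retromer subunit Vps35 (0.96 ± 0.19, offset fit 0.57) rose, while the sorting receptors Sort1 (−1.41 ± 0.23, offset fit −0.80) and Igf2r (−1.40 ± 0.40, offset fit −0.58, adjusted p = 0.131), the large mannose 6-phosphate receptor, fell. Igf2r was 204 CPM in control 2 against 90.7 and 57.1 in the other controls, its log2 fold change was −0.78 without control 2, and its call ended without KO 1 (adjusted p = 0.0773) or KO 3 (0.0664) in edgeR's test. Of 21 genes of the TFEB family and of nutrient sensing at the lysosome, 6 rose and 5 fell (median 0.08, and 3 and 3 with the offsets, median 0.03). Leaving out control 1 or KO 1 gave 2 increases there and leaving out KO 2 gave 1, and decreases numbered 3 with any single KO library left out. The Ragulator subunit Lamtor3 (1.22 ± 0.20, offset fit 0.77) rose in both fits. Rptor (−1.33 ± 0.21, offset fit 0.03, adjusted p = 0.889) and Mtor (−0.90 ± 0.27, offset fit 0.17, adjusted p = 0.422), the scaffold and kinase of mTORC1, were called lower without the offsets alone, and Rptor was −0.12 with quadratic offsets. Mtor was −0.54 without control 2, and its call ended without KO 1, KO 2 or KO 3 (adjusted p = 0.0575, 0.0736 and 0.0837 in edgeR's test).

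Among protease inhibitors, 6 of 10 listed genes were tested, 3 rose in both fits and 0 fell. These were Cstb (1.27 ± 0.24, offset fit 0.49), a cystatin that blocks cathepsins, Serpinb6a (1.61 ± 0.20, offset fit 1.10), a serpin, and Spink1 (1.54 ± 0.27, offset fit 0.68), an inhibitor of trypsin. Over all 5 lists, 26 of 105 tested genes rose and 34 fell (all genes, 22.7% and 24.2%). With the offsets 18 rose and 22 fell (all genes, 17.1% and 17.3%). In both fits the share of increases was near that of all genes and the share of decreases above it. Leaving out control 1 or KO 2 left 15 increases, and leaving out KO 1 left 16.

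**Figure D5:**
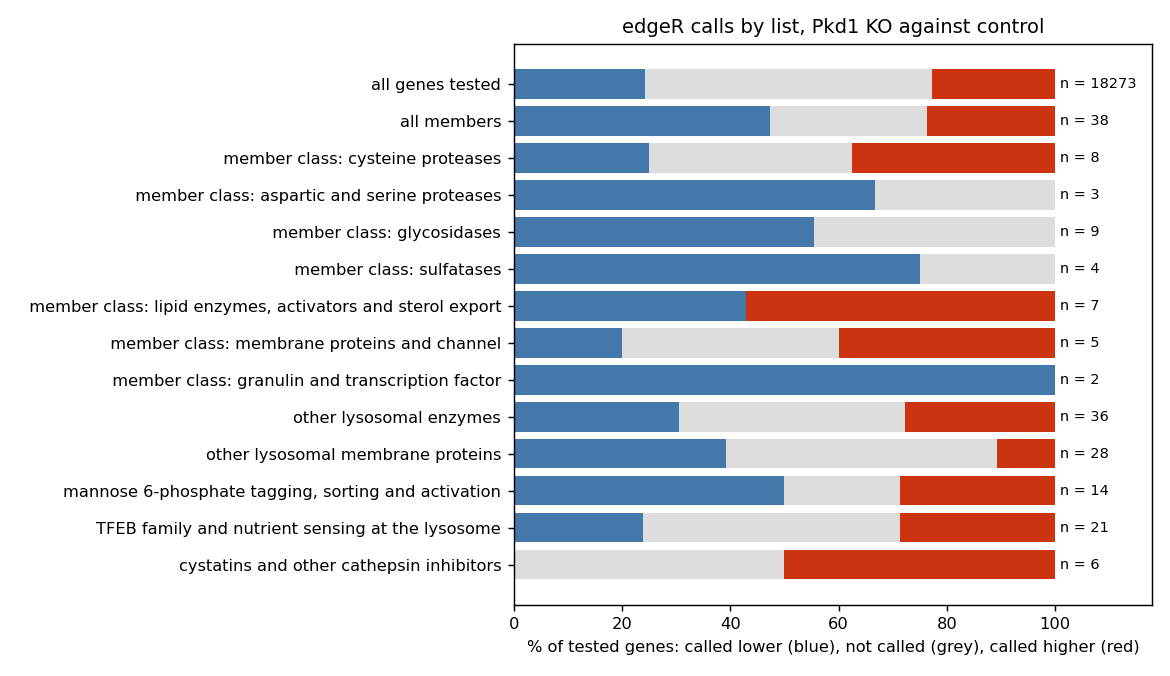
Share of tested genes called lower (blue), not called (grey) and called higher (red) in edgeR's test among all genes, the 38 lysosomal genes ("all members"), their classes and the lists of other lysosomal genes, with the number tested. The 38 genes have 47.4% called lower beside 24.2% of all genes, and glycosidases, sulfatases and aspartic and serine proteases have no red part.

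Markers of cell types that hold many lysosomes moved as well. Of 18 macrophage markers 13 rose and 1, Csf1r, fell (12 and 1 with the offsets), and their summed level was 151 to 202 CPM in controls and 287 to 463 CPM in Pkd1 KO kidneys (138 to 176 and 189.8 to 275 CPM without Lyz2, the most abundant), with none of them at 0. The order KO 2, KO 3, KO 1 of that sum, 463, 401 and 287 CPM, was also that of Ctss and of Ctsc, which was not called. It was not particular to them: Asah1 (215, 212 and 209 CPM) had the same order, as did Npc1, which fell (8.84, 8.59 and 7.58 CPM). The other cathepsins that rose had other orders. Ctsh was highest in KO 1 (649.9 CPM), and Ctsk in KO 3 (14.7 CPM, beside 14.3 CPM in KO 2). The part of macrophage RNA in the levels of Ctss, Ctsc, Ctsh and Ctsk was not tested. For Ctsk, osteoclast markers were near 0: the sum of 5 was 1.03 to 1.24 CPM in controls and 1.64 to 2.05 CPM in Pkd1 KO kidneys, and Oscar, Ocstamp and Dcstamp did not pass the filter.

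Of 13 proximal tubule markers 9 fell and 2 rose (1 without control 1, control 3, KO 1 or KO 2), Kap and Slc5a12, which was named after its value was seen. With the offsets 8 fell and 0 rose. Their summed level was 38659.8 to 44439 CPM in controls and 50993 to 59649 CPM in Pkd1 KO kidneys, but 17858 to 24683 against 11314 to 13682 CPM without Kap, an androgen-regulated gene (1.14 ± 0.27, offset fit 0.22, adjusted p = 0.405). Most of these markers fell beside Psap, Gaa, Man2b1 and Lgmn, and the part of proximal tubule RNA in those decreases was not tested. Distal nephron and collecting duct markers gave 6 decreases and 1 increase of 8 tested (5 and 0 with the offsets), with a sum of 3977 to 5271 CPM in controls and 1791 to 2354 CPM in Pkd1 KO kidneys. Of 8 injured tubule markers 4 rose and 2 fell (2 and 2 with the offsets, and also without control 1, KO 2 or KO 3). Their sum was 831 to 1009 CPM in controls and 877 to 1352 CPM in Pkd1 KO kidneys, but 363 to 407 against 193 to 283 CPM without Spp1, the most abundant, lower in Pkd1 KO kidneys with no overlap. The summed levels of the other lists, in controls and then in Pkd1 KO kidneys, were 281 to 337 and 274 to 386 CPM for fibroblasts, 347 to 421 and 279 to 284 CPM for endothelium, and 215 to 385 and 164 to 190.01 CPM for podocytes. T and NK cell markers summed to 4.496 to 5.57 and 7.64 to 12.1 CPM and neutrophil markers to 1.69 to 1.88 and 1.78 to 3.46 CPM, with Ly6g at 0 in all libraries. Markers of kidney epithelium were abundant in all 6 libraries.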

How the data were processed

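Poly-A RNA of 6 whole kidneys was sequenced. The authors deposited raw counts per gene in 7 tables. Tools in the submitters' processing notes are STAR 2.6.1e, cutadapt 4.0 and FastQC 0.11.8, with the build GRCm39. The column that ignores strand was used, since the first strand column held 49.1% to 50.0% of stranded reads. The 2 runs of control 1 were summed. The 4 summary lines that name no gene (22.9% to 26.3% of reads) were left out. Symbols, exon lengths and GC content came from GENCODE M21, an older build joined by gene identifier (52073 of 56923 matched).

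edgeR 4.0.16 (R 4.3.3) gave quasi-likelihood tests after filterByExpr and TMM, with Benjamini-Hochberg adjustment over all 18273 genes at 0.05. SE was taken from the F statistic (size of the log2 fold change over √F). CPM used TMM library sizes. The offset fit (17785 genes) removed per-library loess surfaces (span 0.3) of log2 CPM on GC content and log2 length. Alternatives were DESeq2 1.42.0, other scalings and filters, a replicate block, left-out libraries and, added after seeing the data, quadratic offsets. The scripts were tested on simulated data with the same spread for every gene. Of 50 genes changed 1.5-fold 7 were recovered, and of 50 changed 2-fold 36. That simulation called 147 of 17831 genes, beside 8579 of 18273 in these data, so its recovery is not that of these data. With an added trend on GC content and length and the offsets, 4 and 33 were recovered. Of the 143 genes called there, 7 had no change beyond the trend. Without the offsets the same trend gave 4936 calls, of which 4784 were genes changed by the trend alone. The size of that trend was set and not taken from these data. A change of 2-fold or less can thus miss the threshold in either fit, and a trend alone can pass it without the offsets. The 38 genes and all lists were chosen with earlier results of these data known. All 38 are named. From each other list the rule took up to 3 genes called in each direction by size, and the text names fewer, a narrowing made after their values were seen.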

Additional observations from a re-analysis of the deposited data

How the results depend on the processing

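Of 608 values of the 38 genes over 16 alternatives, 496 kept their direction and side of the threshold, 72 lost the call, 9 gained one and 31 changed sign, and 16 genes kept both under every alternative. Calls among the 38 numbered 16 with the offsets (4 higher), 16 with the block and offsets (4 higher) and 15 with quadratic offsets (3 higher). With the block and offsets, all genes called numbered 5399 (2718 higher, 2681 lower), and 2668 were higher with quadratic offsets. Other lysosomal decreases numbered 22 with the offsets and 21 with the block and offsets. Leaving out 1 library gave 19 to 30 calls among the 38 (5 to 11 higher, 14 to 19 lower), 5071 to 10318 among all genes (2340 to 4877 higher, 2731 to 5441 lower) and 39 to 69 among the other lysosomal genes (15 to 30 higher, 24 to 40 lower). Where a call was lost or a sign changed, the cause was not tested. With upper-quartile scaling the median of the 38 was −0.08.

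Signs changed with the offsets, the block with offsets and the quadratic offsets, in that order, for Tfeb (0.5663, 0.5938, 0.3606), Arsa (0.3792, 0.3810, 0.3528), Ctsb (0.1953, 0.2111, 0.1465), Manba (0.0878, 0.0877, 0.0543), Ctsa (0.0425, 0.0436, 0.0246), Mtor (0.1675, 0.1678, 0.1067), Hexa (−0.0220, −0.0157, −0.0713) and Ctsl (−0.0392, −0.0421, −0.0999), and with the first 2 of these for Rptor (0.0286, 0.0280). Upper-quartile scaling turned Ctsb to 0.0928 and Arsa to 0.0336, and DESeq2 and its size factors turned Hexa to −0.0158. Without single libraries Scarb2 ran from −0.0232 (control 2 left out) to 0.1289, Hexa from −0.1653 (control 2 left out) to 0.0554, with −0.0264 without KO 3, and Ctsl from −0.0404 to 0.0669, with −0.0230 and −0.0141 between. Apart from Tfeb, Ctsa, Mtor and Rptor, none of these genes was called.

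Same-numbered samples did not deviate together: their correlations were 0.038, −0.084 and −0.029, and 1 of 6 samples correlated best with its own number, so the numbers do not pair the samples. A replicate block gave 22 calls among the 38, 7 higher and 15 lower, beside 7397 among all genes, 3581 higher and 3816 lower.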
